A study of Mus musculus with 19 samples.

Results

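Transcripts of the NADPH oxidase of phagocytes were followed in mouse dorsal root ganglia, which hold the cell bodies of sensory neurons. The genes described are Cybb, Cyba, Ncf1, Ncf4 and Rac2, 5 of the 36682 genes in the deposited table of counts and FPKM, found there by symbol. All 19 samples were L3-L5 ganglia of male mice homozygous for the MaFIA (macrophage Fas-induced apoptosis) transgene, from the side of the operated knee in operated mice. In this strain the promoter of Csf1r, a gene of macrophages and other myeloid cells, drives a suicide receptor that the dimerizing drug AP20187 switches on, so every group carried the transgene. There were 5 samples of DMM mice given AP20187, 5 of DMM mice given vehicle, 4 of naive mice given AP20187 and 5 of naive mice given vehicle. DMM is surgical destabilization of the medial meniscus, a model of knee osteoarthritis. Injections were intraperitoneal and daily for 5 days, and in DMM mice they were given 8 weeks after surgery. Naive mice were age-matched and had no sham operation in the labels, and the age itself is not given in the sources used here. The labels number the samples, and do not say whether each came from 1 animal or whether the animals shared a batch, so the p-values measure the spread between these samples. The study asks what systemic removal of macrophages does to the ganglia in osteoarthritic and in naive mice.

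The phagocyte oxidase moves electrons from NADPH across a membrane to oxygen and so makes superoxide, the first product of the oxidative burst with which neutrophils, monocytes and macrophages kill microbes. Its catalytic core in the membrane is the heterodimer of the proteins encoded by Cybb and Cyba. On activation, cytosolic subunits join the core: among them the organizer encoded by Ncf1 and the accessory subunit encoded by Ncf4, together with a Rac GTPase, which in blood cells is largely Rac2. Inherited loss of a subunit causes chronic granulomatous disease. In ganglia, oxidase subunits are known chiefly from macrophages and from leukocytes that enter the tissue.

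In GRCm39 coordinates, as the deposited table gives them, Cybb (ENSMUSG00000015340) lies at chrX:9301491-9354010 on the minus strand and Cyba (ENSMUSG00000006519) at chr8:123151515-123159669 on the minus strand. Ncf1 (ENSMUSG00000015950) lies at chr5:134248907-134258479 on the minus strand, where Gtf2ird2 overlaps it on the plus strand. Ncf4 (ENSMUSG00000071715) at chr15:78129001-78146780, plus strand, and Rac2 (ENSMUSG00000033220) at chr15:78443367-78456983, minus strand, share a chromosome arm, with 296586 bases and 14 listed genes between them. No other listed gene overlaps Cybb, Cyba, Ncf4 or Rac2. The start regions of the 5 genes are shown where RefSeq start windows were given. Windows of Cybb, Cyba and Ncf1 were found, 3 of 5. Each line gives 120 bases before and 30 bases from the transcript start, 5′ to 3′ on the gene's strand, from RefSeq on GRCm38.p6, a build whose coordinates differ from those above. Capitals mark TTCCTC, which is GAGGAA on the other strand, a form of the site bound by the myeloid factor PU.1. Other and shorter forms of the site were not searched and are not marked.
Cybb, chrX:9469295-9469444: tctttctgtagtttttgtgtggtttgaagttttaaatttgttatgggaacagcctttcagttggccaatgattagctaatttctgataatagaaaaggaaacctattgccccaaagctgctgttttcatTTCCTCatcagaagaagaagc
Cyba, chr8:122432911-122433060: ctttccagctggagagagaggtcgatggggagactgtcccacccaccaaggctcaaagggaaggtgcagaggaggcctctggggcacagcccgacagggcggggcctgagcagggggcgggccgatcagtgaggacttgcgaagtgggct
Ncf1, chr5:134229596-134229745: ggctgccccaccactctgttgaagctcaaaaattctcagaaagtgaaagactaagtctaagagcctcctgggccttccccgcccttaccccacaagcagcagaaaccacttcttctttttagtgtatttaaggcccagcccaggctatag
GAGGAA was searched on both strands of the whole window of 300 bases. Cybb held 1 match, which starts at base 10 of the transcript, and the windows of Cyba and Ncf1 held none. Of 32851 windows of all genes, 28.28% held at least 1 match, so a match is common. It is a description of letters, and binding was not measured here. A window without GAGGAA may still hold another form of a PU.1 site.

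Library totals ran from 60984830 to 74691396 counts, and no library repeated another. The lowest count of any of the 5 genes in any library was 255, for Ncf4 in DMM vehicle 32, so every one was counted well above the filter in every library. Levels are in CPM, that is counts relative to the TMM-adjusted library total, and comparisons between genes use FPKM, which also divides by transcript length. Sensory neuron markers (Avil, Prph, Isl1, Prdm12, Scn10a and Tubb3) were all detected in each group, as the labelled tissue would hold. DMM vehicle 64 stood apart from the other vehicle libraries: it had the highest level of all 5 oxidase genes among the 10 vehicle libraries. It was also the highest of the 10 in the summed FPKM of granulocyte precursor, mature neutrophil, monocyte, macrophage, B cell, eosinophil and Schwann cell markers, and the lowest in that of sensory neuron markers, at 942 FPKM where the other 9 had 1411 to 2352. Fold changes of the 5 genes, their spread within DMM vehicle and the counts of listed genes in DMM are also given without it. The ganglia were sequenced in bulk, so more cells of a type and more RNA per cell cannot be told apart.

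All 5 oxidase genes were higher with AP20187 than with vehicle, in DMM and in naive mice. The fitted increases were 4.64-fold to 8.35-fold in DMM and 5.07-fold to 8.94-fold in naive mice. Adjusted p are Benjamini-Hochberg values of edgeR's quasi-likelihood F test over 22778 tested genes, with 0.05 as the threshold. In DMM, 5 of 5 genes passed as higher, where 11.3% of all tested genes did. In naive mice, 5 of 5 passed as higher, where 8.61% of all tested genes did. In both settings every AP20187 library lay above every vehicle library for each of the 5 genes. Such a separation, with AP20187 higher, was seen for 8.71% of tested genes in DMM and 9.39% in naive mice.

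**Figure D1:**
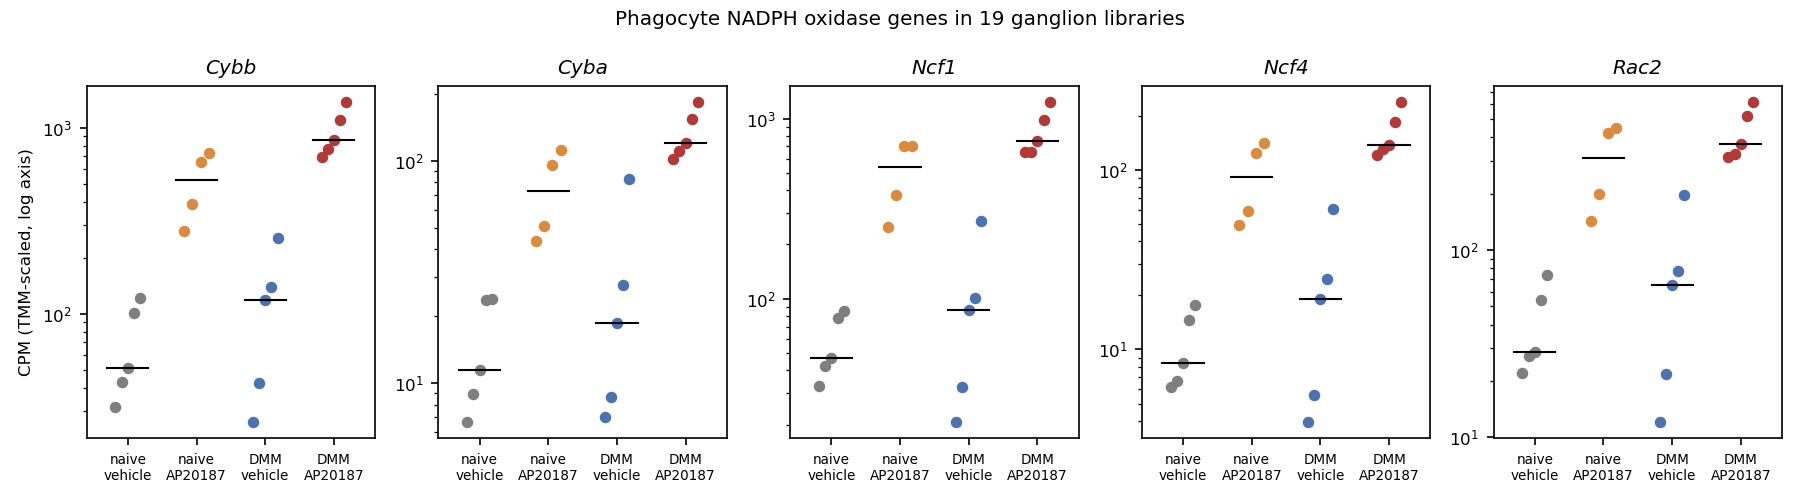
CPM (log axis) of the 5 oxidase genes in the 19 libraries, 1 panel per gene and 1 point per library, with the group median as a line. For each gene the AP20187 points of naive and of DMM mice lie above the vehicle points of the same surgery, and the 5 DMM vehicle points have the widest spread.

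Cybb encodes the glycosylated catalytic subunit that carries the flavin and the hemes. In DMM with AP20187 its CPM was 1095, 856, 769, 692 and 1375 in libraries 58 to 62, against 26.0, 42.4, 118.6, 138 and 256 in vehicle libraries 32, 33, 34, 63 and 64. In naive mice with AP20187 it was 652, 731, 388 and 280 in libraries 1, 3, 4 and 5, against 43.0, 50.9, 100.9, 121 and 31.4 in vehicle libraries 1 to 5. The lowest AP20187 library was 2.70 times the highest vehicle library in DMM and 2.31 times in naive mice. The group means were 957 ± 278 CPM (SD, n = 5) and 116 ± 91.7 (n = 5) in DMM, and 513 ± 214 (n = 4) and 69.5 ± 39.2 (n = 5) in naive mice. The log2 fold change was 3.04 (SE 0.53, adjusted p = 0.00110, edgeR) in DMM and 2.88 (SE 0.54, adjusted p = 0.00319) in naive mice.

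Cyba encodes the small membrane subunit that stabilizes the Cybb protein and docks the organizer. Its CPM in DMM was 155, 111, 120, 102 and 184 in AP20187 libraries 58 to 62, and 8.65, 7.01, 18.7, 27.5 and 82.6 in vehicle libraries 32, 33, 34, 63 and 64. In naive mice it was 95.8, 111.8, 50.7 and 43.5 in AP20187 libraries 1, 3, 4 and 5, and 11.4, 6.66, 23.8, 23.7 and 8.90 in vehicle libraries 1 to 5. The groups did not overlap, but in DMM the margin was the narrowest of the 5 genes, with the lowest AP20187 library at 1.23 times vehicle library 64. Mean CPM was 134 ± 34.1 (SD, n = 5) against 28.9 ± 31.1 (n = 5) in DMM and 75.4 ± 33.5 (n = 4) against 14.9 ± 8.24 (n = 5) in naive mice. The log2 fold change was the smallest of the 5 in both settings, at 2.22 (SE 0.56, adjusted p = 0.0100, edgeR) in DMM and 2.34 (SE 0.58, adjusted p = 0.0161) in naive mice. Without naive AP20187 library 3, the naive value was 2.09 with an adjusted p of 0.0551 (edgeR), past the threshold no longer.

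Ncf1 encodes the organizer, which carries the other cytosolic subunits to the membrane once it is phosphorylated. Its CPM in DMM was 978, 656, 753, 650 and 1235 in AP20187 libraries 58 to 62, and 20.6, 32.3, 87.1, 100.8 and 271 in vehicle libraries 32, 33, 34, 63 and 64. In naive mice it was 706, 706, 376 and 251 in AP20187 libraries 1, 3, 4 and 5, and 46.8, 42.2, 78.0, 85.2 and 32.8 in vehicle libraries 1 to 5. Again the 2 drug groups stood clear of vehicle, at 2.40 times the highest vehicle library in DMM and 2.94 times in naive mice for the lowest AP20187 library. Mean CPM was 854 ± 251 (SD, n = 5) against 102 ± 100.3 (n = 5) in DMM and 510 ± 232 (n = 4) against 57.0 ± 23.2 (n = 5) in naive mice. The log2 fold change, 3.06 (SE 0.55, adjusted p = 0.00130, edgeR) in DMM and 3.16 (SE 0.57, adjusted p = 0.00251) in naive mice, was the largest of the 5 in both. Gtf2ird2 on the other strand had at most 2130 counts in a library, and whether the counting used the strand of these stranded libraries is not given in the sources used here.

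Ncf4 encodes the accessory subunit, which binds a phosphoinositide of the phagosome membrane. Its CPM in DMM was 184, 131, 137, 121 and 238 in AP20187 libraries 58 to 62, and 3.93, 5.55, 19.2, 24.6 and 60.7 in vehicle libraries 32, 33, 34, 63 and 64. In naive mice it was 125, 140.1, 58.7 and 49.2 in AP20187 libraries 1, 3, 4 and 5, and 8.45, 6.16, 14.5, 17.6 and 6.67 in vehicle libraries 1 to 5. The drug libraries lay above the vehicle libraries throughout, and within DMM vehicle the level spanned a 15.4-fold range, or 6.25-fold without library 64. Mean CPM was 162 ± 49.1 (SD, n = 5) against 22.8 ± 22.9 (n = 5) in DMM and 93.1 ± 45.9 (n = 4) against 10.7 ± 5.10 (n = 5) in naive mice. The log2 fold change was 2.83 (SE 0.59, adjusted p = 0.00331, edgeR) in DMM and 3.12 (SE 0.61, adjusted p = 0.00394) in naive mice.

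Rac2 encodes the GTPase of blood cells that, when loaded with GTP, completes the active oxidase. Its CPM in DMM was 519, 325, 368, 312 and 616 in AP20187 libraries 58 to 62, and 12.0, 21.8, 65.1, 76.9 and 197 in vehicle libraries 32, 33, 34, 63 and 64. In naive mice it was 421, 447, 199 and 142 in AP20187 libraries 1, 3, 4 and 5, and 28.5, 27.3, 54.2, 73.7 and 21.9 in vehicle libraries 1 to 5. The lowest drug library was 1.58 times the highest vehicle library in DMM and 1.93 times in naive mice. Mean CPM was 428 ± 133 (SD, n = 5) against 74.6 ± 73.7 (n = 5) in DMM and 302 ± 154 (n = 4) against 41.1 ± 22.1 (n = 5) in naive mice. The log2 fold change was 2.52 (SE 0.59, adjusted p = 0.00637, edgeR) in DMM and 2.88 (SE 0.61, adjusted p = 0.00674) in naive mice.

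The DMM increases moved with the choice of vehicle libraries. Without DMM vehicle 64 they were larger, with log2 fold changes of 3.56 for Cybb, 3.12 for Cyba, 3.83 for Ncf1, 3.61 for Ncf4 and 3.28 for Rac2, and 5 of 5 passed as higher, where 15.5% of all tested genes did. The DMM vehicle means were then 81.4 ± 55.4 CPM (SD, n = 4) for Cybb, 15.5 ± 9.52 for Cyba, 60.2 ± 39.7 for Ncf1, 13.3 ± 10.2 for Ncf4 and 44.0 ± 31.8 for Rac2. With only vehicle libraries 63 and 64, whose numbers follow those of the DMM AP20187 samples, 2 of 5 genes passed, Cybb and Ncf1, where 2.71% of all tested genes passed as higher. In that fit Cyba stood at 1.27 (adjusted p = 0.206, edgeR), Ncf4 at 1.92 (adjusted p = 0.0529) and Rac2 at 1.63 (adjusted p = 0.112).

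**Figure D2:**
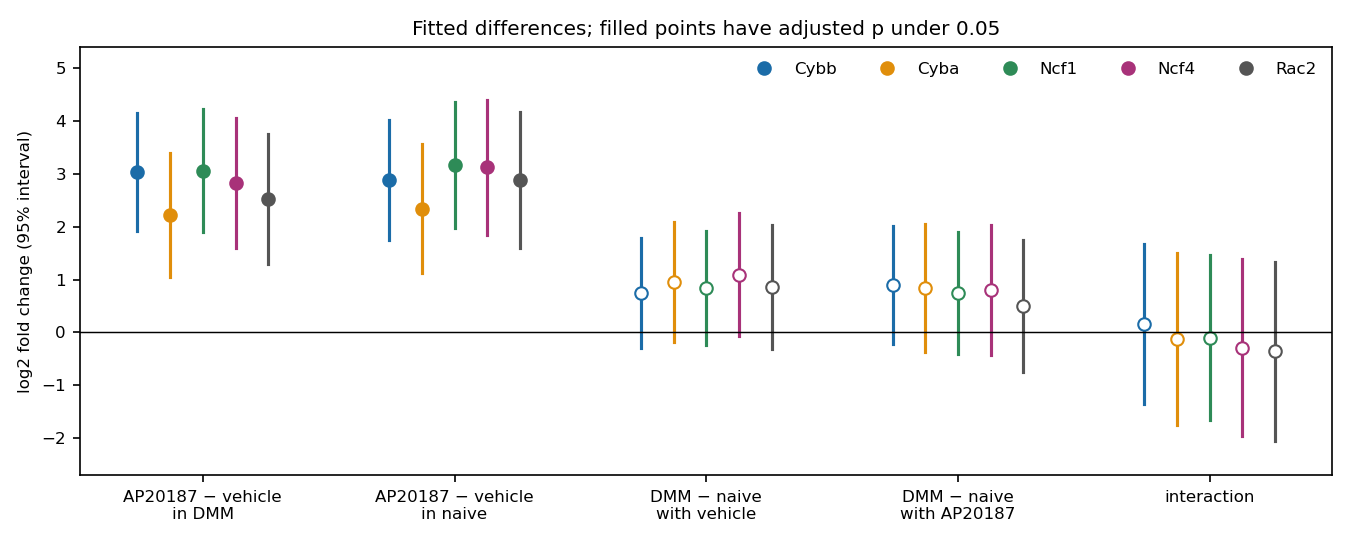
Fitted log2 fold changes of the 5 oxidase genes in the 5 comparisons, with 95% intervals from the edgeR model, filled where the adjusted p is under 0.05. The 10 filled points are the AP20187 effects in DMM and naive mice, between 2.22 and 3.16, and the open points of the other comparisons have intervals that include 0.

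Surgery alone gave no call for the 5 genes. Between DMM and naive mice with vehicle, the log2 fold changes were 0.74 for Cybb, 0.96 for Cyba, 0.84 for Ncf1, 1.09 for Ncf4 and 0.86 for Rac2, each with an adjusted p of 1 in edgeR. None of the 22778 tested genes (0.0%) passed in this comparison by edgeR or by DESeq2, while 377 had an unadjusted p under 0.05 in edgeR, and limma voom called 1 gene. None of the 5 oxidase genes was among the 377, the smallest unadjusted p being 0.0644 for Ncf4. The DMM vehicle libraries fell on both sides of the naive ones: 32 and 33 had less Rac2 and Ncf4 than any naive vehicle library, while 63 and 64 had more Cybb, Cyba, Ncf1, Ncf4 and Rac2 than any. The 95% intervals ran from -0.30 to 1.78 for Cybb and from -0.07 to 2.26 for Ncf4, so an increase of over 4-fold in Ncf4 lies within its interval. Without vehicle library 64 the differences were 0.05 to 0.32. With vehicle libraries 63 and 64 only, Cyba at 1.95, Ncf1 at 1.76 and Ncf4 at 2.05 passed (adjusted p = 0.0485 each, edgeR). In that fit 541 of 24459 tested genes passed, 433 of them (1.77% of those tested) as higher. With libraries 32 to 34 only, all 5 differences were below 0, from -0.38 for Cyba to -0.16 for Cybb.

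Between DMM and naive mice that both had AP20187, the log2 fold changes were 0.90 for Cybb, 0.83 for Cyba, 0.74 for Ncf1, 0.80 for Ncf4 and 0.50 for Rac2. None of the 5 passed, with adjusted p between 0.403 and 0.709 in edgeR, and 0.702% of all tested genes did. All 5 DMM libraries exceeded the naive median for each gene, but the groups overlapped, with 4 of 5 DMM libraries above every naive library for Cybb and 2 of 5 for Ncf4 and for Rac2. The naive AP20187 libraries fell into an upper pair, 1 and 3, and a lower pair, 4 and 5, for every one of the 5 genes.

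The AP20187 effect was also compared between DMM and naive mice as an interaction. The difference of the log2 effects, DMM minus naive, was 0.16 for Cybb (95% interval -1.35 to 1.67), -0.13 for Cyba (-1.76 to 1.51), -0.10 for Ncf1 (-1.66 to 1.46), -0.29 for Ncf4 (-1.97 to 1.38) and -0.36 for Rac2 (-2.05 to 1.34). None passed, with adjusted p of 0.964 or more in edgeR, and 0.114% of all tested genes did. The intervals include differences of 2-fold and more in either direction, so the data do not show that the effects were alike.

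The 5 transcripts varied together from library to library. In log2 CPM, Pearson r between pairs of the 5 genes ran from 0.916 to 0.994 over the 10 vehicle libraries and from 0.943 to 0.996 over the 9 AP20187 libraries, described without a test since the points share library depth and cell make-up. In DMM vehicle the order from lowest to highest was library 32, 33, 34, 63 and 64 for Cybb, Ncf1, Ncf4 and Rac2, and Cyba differed only in placing 33 below 32. In DMM with AP20187, library 61 was the lowest and 62 the highest for all 5. The spread within DMM vehicle was wide: the SD of log2 CPM was 1.34 for Cybb, 1.42 for Cyba, 1.46 for Ncf1, 1.61 for Ncf4 and 1.59 for Rac2, where the median tested gene had 0.56. Without library 64 it was 0.92 for Cyba to 1.30 for Ncf4, against a median of 0.44. In DMM with AP20187 it was 0.35 to 0.43 for the 5 genes, against a median of 0.44.

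Levels could be compared between the genes in FPKM. In DMM with AP20187 the median FPKM was 206 for Ncf1, 146 for Cybb, 119 for Rac2, 115 for Cyba and 67.9 for Ncf4. In naive mice with AP20187 it was 124 for Ncf1, 83.4 for Rac2, 75.1 for Cybb, 58.9 for Cyba and 37.9 for Ncf4. In every one of the 9 AP20187 libraries Ncf1 ranked highest, and Ncf4 ranked lowest in all 19 libraries. With vehicle the medians were 24.3 for Ncf1, 21.4 for Rac2, 20.8 for Cybb, 18.3 for Cyba and 9.65 for Ncf4 in DMM, and 12.6, 9.01, 8.30, 10.8 and 4.09 for the same genes in naive mice. There the order of the upper 4 changed from library to library, and their ranges overlapped. The FPKM values of naive AP20187 libraries 1, 3 and 4 were 0.901 to 0.922 of what the counts of the median library would give, which touches levels across libraries but not ratios within one.

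The ratio to Cybb within a library shows whether the subunits moved by the same factor. The FPKM ratio of Cyba to Cybb had a median of 0.789 (range 0.726 to 0.869) in DMM with AP20187 and 1.11 (0.880 to 1.86) in DMM with vehicle. All 5 AP20187 ratios lay below all 5 vehicle ratios. The mean log2 ratio differed by -0.66 (exact permutation p = 0.00794, two-sided, the smallest that 5 against 5 allows, adjusted p = 0.127 over 16 tests). In naive mice the median was 0.838 with AP20187 and 1.32 with vehicle, and the groups overlapped through vehicle library 2 (difference -0.55, exact permutation p = 0.0794, adjusted p = 0.317). Rac2 to Cybb had a median of 0.843 in DMM with AP20187 against 1.03 in DMM with vehicle (difference of mean log2 ratios -0.34, exact permutation p = 0.0238, adjusted p = 0.127). In naive mice with AP20187 the median Rac2 to Cybb ratio was 1.05, and all 4 ratios lay above those of the 5 DMM libraries with AP20187 (difference of mean log2 ratios, DMM minus naive, -0.35, exact permutation p = 0.0159, the smallest that 5 against 4 allows, adjusted p = 0.127). Ncf1 to Cybb and Ncf4 to Cybb differed by no more than 0.16 in size between any 2 groups compared, with adjusted p of 0.550 or more. None of the 16 ratio tests passed after adjustment, and 3 had an unadjusted p under 0.05. A single ratio at the smallest p that 5 against 5 allows adjusts to 0.127, so this design could pass the threshold only if several ratios reached that p.

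**Figure D3:**
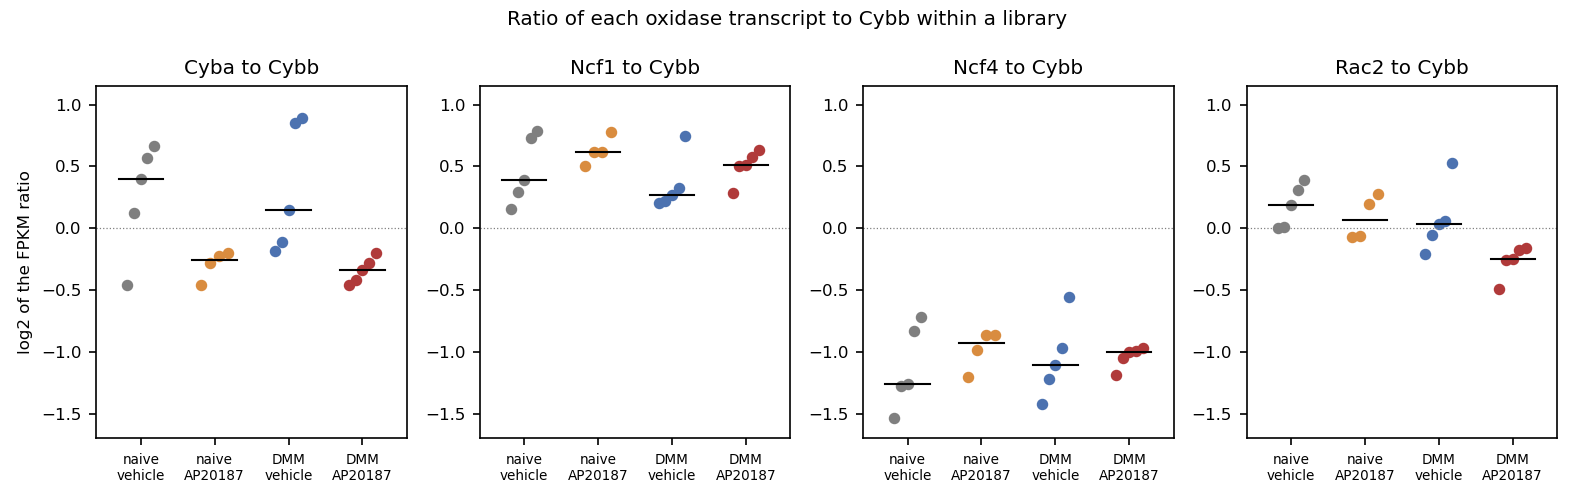
log2 of the FPKM ratio of Cyba, Ncf1, Ncf4 and Rac2 to Cybb, 1 point per library, with the group median as a line and a dotted line at equal FPKM. The Cyba ratios of DMM with AP20187 all lie below those of DMM with vehicle, and the Rac2 ratios of DMM with AP20187 all lie below those of naive mice with AP20187.

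Rac2 is 1 of 3 Rac GTPases, and Rac1 is expressed in most cells. The share of Rac2 in the summed FPKM of Rac1, Rac2 and Rac3 had a median of 64.2% (range 60.0% to 72.8%) in DMM with AP20187 and 21.7% (5.78% to 46.9%) with vehicle after DMM. The naive medians were 52.1% (35.3% to 61.0%) and 12.3% (8.90% to 26.5%). Rac2 transcripts per length thus exceeded those of Rac1 and Rac3 together in all 5 DMM libraries with AP20187 and in naive AP20187 libraries 1 and 3, and in none of the 10 vehicle libraries. Rac1 was at 274 ± 26.4 CPM (SD, n = 5) and 247 ± 26.7 (n = 5) in DMM with AP20187 and vehicle, a log2 fold change of 0.15 (adjusted p = 0.403, edgeR). In naive mice Rac1 rose by 0.49 (adjusted p = 0.0191, edgeR), a call lost without AP20187 library 3 (adjusted p = 0.0784).

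Partner genes of the oxidase were listed for comparison. Cybc1, a chaperone needed for the heterodimer of the core, stood at 0.36 (adjusted p = 0.0619, edgeR) in DMM and 0.09 (adjusted p = 0.711) in naive mice. Rap1a, a small GTPase that copurifies with the core, stood at 0.49 (adjusted p = 0.133, edgeR) and 0.58 (adjusted p = 0.134).

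Receptors that start the burst were higher with AP20187 in 8 of 10 cases in DMM and 9 of 10 in naive mice, with none lower. With 1 library left out, 7 to 9 of the 10 receptors were higher in each setting, and 1 of the DMM calls was lost in 8 of 10 fits. Over all tested genes, 11.3% were higher and 12.4% lower in DMM, and 8.61% and 2.57% in naive mice. The median log2 fold changes were 2.08 and 2.46, against -0.10 and -0.07 over all tested genes. They include Itgam, the alpha chain of complement receptor 3 (2.83, adjusted p = 0.00138, and 2.64, adjusted p = 0.00424, edgeR), the platelet-activating factor receptor Ptafr (1.86, adjusted p = 0.00162, and 1.95, adjusted p = 0.00296) and Tlr4, the endotoxin receptor (2.08, adjusted p = 0.000158, and 1.42, adjusted p = 0.00523). Fcgr3, an activating receptor for IgG, rose by 2.08 in DMM and 2.63 in naive mice. Clec7a, the receptor for fungal beta-glucan, did not pass, at -0.72 (adjusted p = 0.278, edgeR) and 0.17 (adjusted p = 0.838).

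Of 11 kinases, exchange factors and other genes that act with the oxidase, 8 were higher and 1 lower in DMM, and 6 higher and 1 lower in naive mice (median log2 fold changes 1.75 and 1.66). Over all tested genes 11.3% were higher and 12.4% lower in DMM, and 8.61% and 2.57% in naive mice. The 1 lower gene of 11 in DMM is thus near the share of all tested genes. Arhgdib, which holds Rac proteins in the cytosol, rose by 2.68 (adjusted p = 0.00369, edgeR) and 3.28 (adjusted p = 0.00270). Vav1, an exchange factor that loads Rac with GTP, rose by 2.43 (adjusted p = 0.00446) and 2.45 (adjusted p = 0.00889). Pik3cd, a leukocyte phosphoinositide 3-kinase, rose by 0.80 in DMM (adjusted p = 0.00370, edgeR). Plcg2, a phospholipase, rose by 1.83 in DMM (adjusted p = 0.0100, edgeR), a call kept in all 10 fits with 1 DMM library left out. In naive mice Plcg2 rose by 1.72 (adjusted p = 0.0282), a call lost without AP20187 library 1 or 3 or vehicle library 1, 2 or 5 (adjusted p up to 0.0955). The gene that was lower in both was Prkcd, a kinase of the organizer, which fell by 0.57 (adjusted p = 0.0245, edgeR) and by 0.65 (adjusted p = 0.0297) on the log2 scale. Its call was lost in DMM without AP20187 library 58, 59 or 60 or vehicle library 32 or 33 (adjusted p up to 0.0715, edgeR), and in naive mice without AP20187 library 1 or 3 or vehicle library 1, 2, 4 or 5 (up to 0.116).

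NADPH is the electron donor. Of 9 genes of the pentose phosphate pathway and of other NADPH supply, of which G6pdx, Pgd, Me1 and Idh1 encode enzymes that reduce NADP to NADPH, 5 were higher and 1 lower in DMM, and 4 higher and 1 lower in naive mice (medians 0.91 and 0.63). Over all tested genes 11.3% were higher and 12.4% lower in DMM, and 8.61% and 2.57% in naive mice, so the 1 lower gene in DMM is near that share. G6pdx, the first enzyme of the pentose phosphate pathway, rose from 89.4 ± 29.2 to 754 ± 222 CPM (SD, n = 5 each) in DMM, which is 3.08 on the log2 scale (SE 0.28, adjusted p = 5.53e-06, edgeR), and by 2.74 (adjusted p = 2.92e-05) in naive mice. Pgd, the third enzyme of the pathway, rose by 1.77 and 1.40, and Tkt, transketolase, by 1.25 in DMM and 0.79 in naive mice. Rpe rose by 0.91 in DMM (adjusted p = 0.000729, edgeR) and by 0.63 in naive mice. The gene that was lower was that of the malic enzyme, Me1, in DMM, which fell by 0.83, and that of the isocitrate dehydrogenase, Idh1, in naive mice, which fell by 0.51 (adjusted p = 0.0497, edgeR). In naive mice the call of Idh1 was lost without any 1 of AP20187 libraries 1, 3 and 4 and vehicle libraries 1, 2, 3 and 5 (adjusted p up to 0.178), that of Tkt without AP20187 library 1 or 3, and that of Rpe without AP20187 library 1.

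Enzymes that remove superoxide and peroxide were listed with genes of the Nrf2 response. Of 21, 1 was higher and 3 lower in DMM, and 4 higher and 1 lower in naive mice, with medians of -0.03 and 0.13. Over all tested genes 11.3% were higher and 12.4% lower in DMM, and 8.61% and 2.57% in naive mice. The naive count of 4 higher was 1 without AP20187 library 1 or 3 or vehicle library 1, 2 or 5. Gpx3, a secreted glutathione peroxidase, rose by 1.97 (SE 0.23, adjusted p = 6.06e-05, edgeR) and 2.24 (SE 0.25, adjusted p = 4.22e-05). Catalase, Cat, fell by 0.75 in DMM, and Gclc, which makes the precursor of glutathione, fell by 0.59 in DMM and by 0.54 in naive mice, where its call was lost without AP20187 library 1 or 3 or vehicle library 2 (adjusted p up to 0.0933, edgeR). Prdx6, a peroxiredoxin, rose by 0.66 in naive mice, a call lost in 6 of 9 fits with 1 naive library left out, namely AP20187 library 1 or 3 or vehicle library 1, 2, 4 or 5. Of 9 genes of the other NADPH oxidases, 7 were in the table and 5 were tested, and Nox4 alone passed, rising by 1.83 (adjusted p = 0.00117, edgeR) in DMM to 12.5 ± 2.34 CPM and by 1.52 (adjusted p = 0.00817) in naive mice to 11.8 ± 3.95. The other 4 tested genes of that list, Noxo1, Duoxa1, Duox1 and Duox2, averaged under 1 CPM in every group.

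Of 8 transcription factors known to act on oxidase genes or in the cells that carry them, 4 were higher in each setting and none lower (medians 1.73 and 1.89). Over all tested genes 11.3% were higher in DMM and 8.61% in naive mice. Of the 4 calls, 1 was lost in DMM in 8 of 10 fits with 1 DMM library left out, and 1 in naive mice without AP20187 library 3. Spi1, which encodes PU.1, rose by 2.60 (adjusted p = 0.00501, edgeR) in DMM and 2.56 (adjusted p = 0.0113) in naive mice. Cebpe, a factor of late granulocyte maturation, rose by 3.01 (adjusted p = 0.00475) and 3.12 (adjusted p = 0.00830). Gfi1, a repressor needed for granulocyte development, rose by 3.20 (adjusted p = 0.00327) and 2.84 (adjusted p = 0.0123). Irf8, a factor of monocyte development, did not pass, at -0.67 (adjusted p = 0.341, edgeR) and -0.16 (adjusted p = 0.853).

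Markers of cells that can carry the oxidase differed in how they changed. Over all tested genes 11.3% were higher and 12.4% lower with AP20187 in DMM, and 8.61% and 2.57% in naive mice. All 5 granulocyte precursor markers (Elane, Mpo, Prtn3, Ctsg and Ms4a3) were higher with AP20187 in both settings, with median log2 fold changes of 3.65 and 3.57. In DMM their summed FPKM was 661 to 1313 with AP20187 and 15.6 to 227 with vehicle, and in naive mice 147 to 758 and 22.5 to 57.2. Of 10 mature neutrophil markers, 5 were higher in DMM and 6 in naive mice, with Ltf at 3.30 and 3.76 and S100a8 at 3.02 and 4.58. Ly6g and Retnlg, of the same list, passed in neither, with Ly6g at -0.20 (adjusted p = 0.847, edgeR) in DMM and 0.57 (adjusted p = 0.553) in naive mice, and Retnlg at -0.13 (adjusted p = 0.903) in DMM and 0.78 (adjusted p = 0.408). The neutrophil sum was 8284 to 13092 FPKM in DMM with AP20187 and 253 to 5665 with vehicle, and 3242 to 14321 against 494 to 1275 in naive mice.

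Monocyte markers split: of 6, 4 were higher and 2 lower in DMM, and 3 higher and 1 lower in naive mice. Chil3, also found in granulocyte precursors, rose by 3.91 and 3.75, while Ccr2, the chemokine receptor of inflammatory monocytes, fell by 2.59 in DMM and by 2.05 in naive mice. The naive call of Ccr2 was lost without AP20187 library 1, 4 or 5 or vehicle library 1, 3 or 4 (adjusted p up to 0.0881, edgeR), and over the 9 naive libraries left out in turn the log2 fold change ran from -2.39 to -1.78. The monocyte sum, in which Chil3 takes part, was 1806 to 4450 FPKM against 44.1 to 693 in DMM and 821 to 2335 against 84.5 to 266 in naive mice. Of 10 macrophage markers, Mrc1 was higher in DMM, at 1.45, and Cd68 and C1qb were higher in naive mice, at 1.98 and 1.87, and none was lower in either. Over all tested genes 11.3% were higher and 12.4% lower in DMM, and 8.61% and 2.57% in naive mice. The DMM count of 1 higher macrophage marker in 10 is thus near the share of all tested genes. The call of Mrc1 was lost without AP20187 library 58 or 59 or vehicle library 33 or 34, that of Cd68 without AP20187 library 3, and that of C1qb without AP20187 library 1 or 3 or vehicle library 1, 2, 4 or 5. Csf1r, whose promoter drives the transgene, stood at -0.02 (adjusted p = 0.982, edgeR) in DMM and 0.45 (adjusted p = 0.554) in naive mice. The macrophage sum overlapped between the drug groups in DMM, at 114 to 586 FPKM with AP20187 and 73.3 to 338 with vehicle, and in naive mice, at 208 to 363 and 41.3 to 226. DMM AP20187 library 62, the highest in all 5 oxidase genes by CPM, had the lowest macrophage sum of its group, at 114 FPKM. Library 58, the next highest in all 5, had the highest sum, at 586. Library 61, the lowest in all 5, had 149, and libraries 59 and 60 had 456 and 390.

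Other cell types moved as well, and their counts stand beside 11.3% of all tested genes higher and 12.4% lower in DMM. In naive mice these shares were 8.61% and 2.57%. Of 6 B cell markers, 5 were lower with AP20187 in each setting, with Pax5 at -4.33 in DMM and -3.57 in naive mice. The B cell sum was 1.44 to 4.30 FPKM with AP20187 against 3.82 to 67.4 with vehicle in DMM, and 1.48 to 2.37 against a median of 14.2 and a highest value of 25.0 in naive mice, where every vehicle sample lay above 2.37. Of 5 eosinophil markers, 2 were higher in each setting, Epx among them at 1.75 (a call lost in DMM without AP20187 library 58 or vehicle library 33 or 34) and 2.52, and their sum was 53.5 to 261 FPKM against 11.7 to 176 in DMM and 73.2 to 187 against 18.2 to 45.9 in naive mice. Of 6 sensory neuron markers, 4 were lower in DMM, Prph by 1.37, and 0 in naive mice, and their sum was 263 to 1135 FPKM against 942 to 2097 in DMM and 255 to 1469 against 1411 to 2352 in naive mice. Ednrb alone passed among 5 satellite glia markers, falling by 1.24 in DMM and by 0.91 in naive mice (a call lost without AP20187 library 1 or 3), with sums of 125 to 413 FPKM against 211 to 468 in DMM and 188 to 269 against 166 to 353 in naive mice. Of 5 Schwann cell markers, 3 were lower in DMM and 0 in naive mice, with sums of 392 to 1349 FPKM against 952 to 1665 in DMM and 596 to 1042 against 893 to 1547 in naive mice. No marker of the 9 lists was at 0 counts in all libraries of a group. The part of these cell types in the oxidase levels was not tested.

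Without DMM vehicle 64, more genes passed in DMM in most of the lists, and fewer Schwann cell markers did. Over all tested genes 15.5% were then higher and 18.5% lower. The granulocyte precursor markers had a median log2 fold change of 4.80, the mature neutrophil markers 2.87, the receptors 2.76 and the transcription factors 2.56. Ltf was at 4.17, S100a8 at 4.06, Chil3 at 4.68, Epx at 2.35 and Fcgr3 at 2.79. Cebpe was at 4.12, Gfi1 at 3.88, Spi1 at 3.48, Arhgdib at 3.48, Vav1 at 3.18 and Irf8 at -0.04, the last with an adjusted p of 0.954 (edgeR). Of the mature neutrophil markers 8 of 10 were higher, with Camp, Csf3r and Mmp8 added, while Ly6g stood at 0.73 (adjusted p = 0.290, edgeR) and Retnlg at 0.96 (adjusted p = 0.121). Of the macrophage markers 5 of 10 were higher, Mrc1 with Cd68 and the complement genes C1qa, C1qb and C1qc. Monocyte markers still split into 4 higher and 2 lower, with Ccr2 at -2.06. Cybc1 at 0.50 (adjusted p = 0.00522, edgeR) and Rap1a at 0.71 (adjusted p = 0.0213) passed. Receptors that start the burst were higher in 9 of 10 cases, genes that act with the oxidase in 8 of 11, and transcription factors in 5 of 8. Of the NADPH supply genes 6 were higher and 2 lower. Of the 21 oxidant defence genes 3 were higher and 4 lower, and for this list alone the shares were near those of all tested genes. Of the other cell types, 3 eosinophil markers were higher, and 6 sensory neuron, 2 satellite glia, 2 Schwann cell and 5 B cell markers were lower. The highest DMM vehicle sum was then 73.6 FPKM for granulocyte precursor markers, 1692 for mature neutrophil, 276 for monocyte, 176 for macrophage, 29.9 for B cell and 68.5 for eosinophil markers.

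In naive mice most of these counts were smaller without AP20187 library 1 or 3. Without library 3, the receptors passed as higher in 7 of 10 cases, genes that act with the oxidase in 2 of 11, mature neutrophil markers in 4 of 10 and macrophage markers in 0 of 10, and 3 of 6 B cell markers were lower. Without library 1, these counts were 7, 2, 5, 1 and 3. Granulocyte precursor markers were higher in 5 of 5 cases without either one. Vehicle libraries mattered too, since genes that act with the oxidase were also higher in 2 of 11 cases without vehicle library 1, 2 or 5. The naive macrophage count rose to 6 of 10 without vehicle library 3 and to 3 without AP20187 library 5, so it ran from 0 to 6 over the 9 libraries left out in turn, and the eosinophil count ran from 1 to 3. In DMM, leaving out any 1 of the 10 libraries gave 0 to 5 higher macrophage markers, 0 to 3 higher eosinophil markers, 2 to 4 higher monocyte markers, 2 to 6 lower sensory neuron markers and 0 to 5 lower Schwann cell markers.

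**Figure D4:**
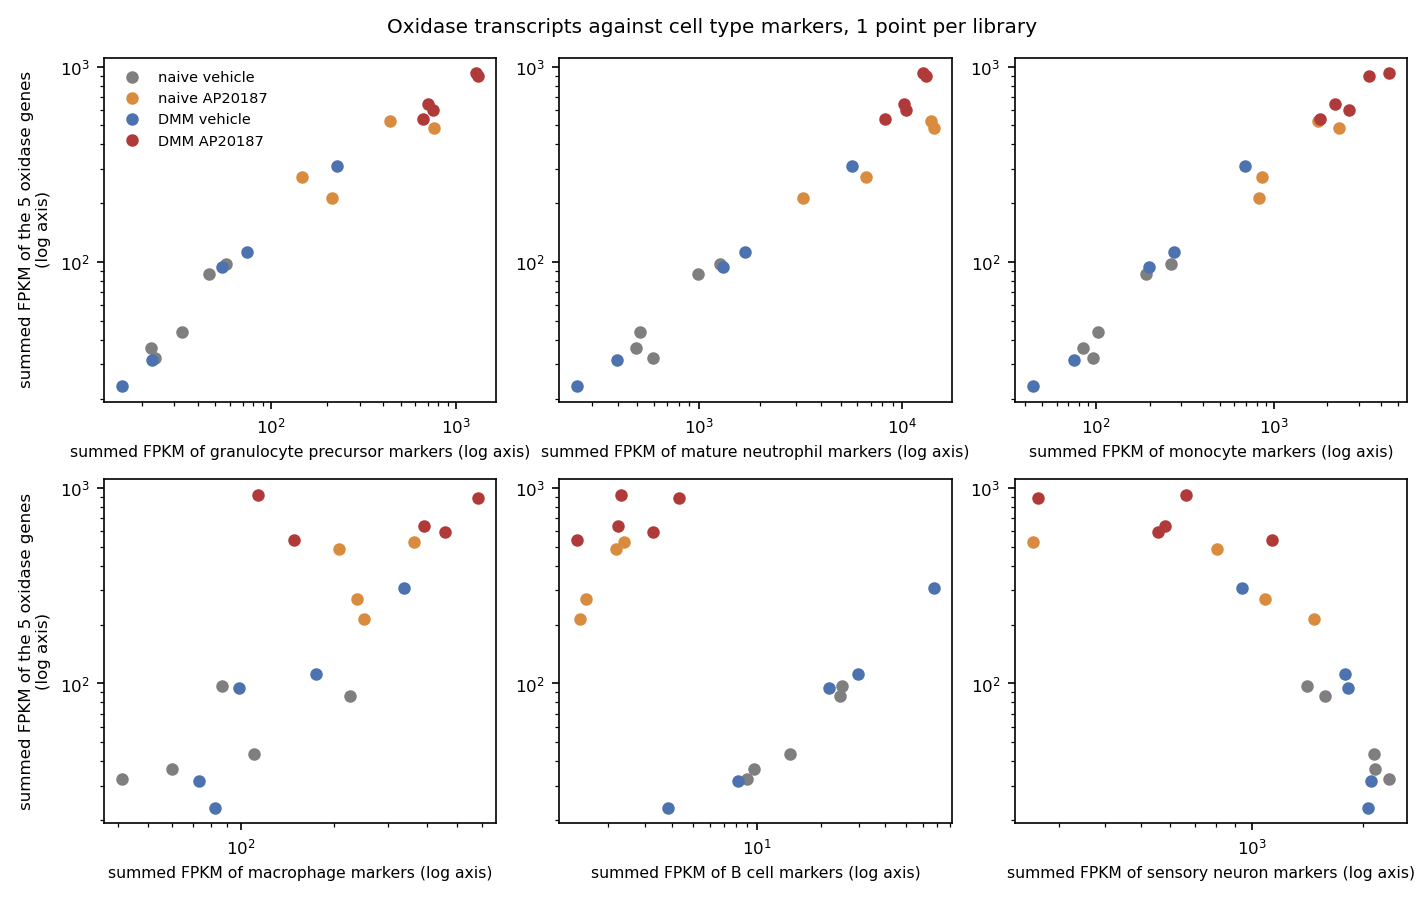
Summed FPKM of the 5 oxidase genes (vertical, log axis) against the summed FPKM of 6 marker lists (horizontal, log axes), 1 point per library, colored by group. AP20187 libraries lie above the vehicle libraries of the same surgery in the oxidase sum and in granulocyte precursor, neutrophil and monocyte sums. Naive AP20187 libraries 1 and 3 have the highest neutrophil sums, 14321 and 13905 FPKM, with less oxidase transcript than any DMM AP20187 library. The monocyte marker Ccr2 fell with AP20187 (a call lost in 6 of 9 naive fits with 1 library left out). B cell sums are low in all 9 AP20187 libraries. Sensory neuron sums tend to be lower in libraries with more oxidase transcript, with overlap between drug groups.

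The genes whose log2 CPM followed each oxidase gene most closely over the 19 libraries were named by a fixed rule, from 14932 genes. For Cybb they were Itgam (Pearson r = 0.996), the leukotriene receptor Ltb4r1 (0.995) and Ipcef1 (0.995). For Cyba they were the cyclin Ccnd3 (0.995), Sqor (0.994) and the phosphatase Ppm1m (0.993). Ncf1 was followed by haptoglobin, Hp (0.998), the chemokine receptor Cxcr2 (0.997) and Pirb (0.996), Ncf4 by Cxcr2 (0.997), the 5-lipoxygenase gene Alox5 (0.997) and Ltb4r1 (0.997), and Rac2 by the integrin chains Itgb2 (0.998) and Itgb2l (0.997) and the kinase Fgr (0.997). These r include the difference between drug and vehicle. Within the 10 vehicle libraries the same pairs had r of 0.976 to 0.997, and within the 9 AP20187 libraries 0.956 to 0.996. Likeness at this level was common: 612 to 660 genes had an r over 0.95 with any 1 of the 5.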

How the data were processed

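Bulk poly(A) RNA sequencing of 19 ganglion samples was analysed. Per the submitters' processing notes, cutadapt, HISAT2 and StringTie were used on GRCm39, and roles, versions and counting settings are not given in the sources used here. The table deposited by the authors gave raw whole-number counts and FPKM, scaled to transcript length and library size, for 36682 genes. A second deposited count matrix of 56691 rows held the same counts and was not used for tests.

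Counts were tested in edgeR 4.0.16 (R 4.3.3) with glmQLFit and glmQLFTest after TMM scaling, with a filterByExpr minimum count of 10 and 1 model of the 4 groups with 15 residual degrees of freedom. Tests were two-sided, with Benjamini-Hochberg adjustment over 22778 genes per comparison. Log2 CPM for correlations and spread used a prior count of 2. Ratios of FPKM were compared by exact permutation tests (scipy 1.17.1), 16 tests adjusted together. The scripts were checked on simulated counts.

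The 5 genes and the 16 gene lists were chosen with earlier results of these data known, so lists are described by counts and medians with no set test. Named beyond the 5 genes are listed partners (1 listed gene is not reported here), up to 3 genes of each functional list with the smallest adjusted p per AP20187 comparison, and the 3 genes most like each oxidase gene among genes that reached 1 CPM on average in some group. Prkcd, Me1, Idh1, Clec7a, Irf8, Csf1r, Ly6g, Retnlg, the markers gained without DMM vehicle 64 and the 4 oxidase homologs that did not pass were added after their values were seen. Alternatives were DESeq2 1.42.0, limma 3.58.1 (voom with sample weights, and log2 FPKM with pseudocounts of 1 and 0.1), other filters, no TMM factors, subsets of the DMM vehicle samples and each sample left out.

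The naive samples share numbers 1, 3, 4 and 5 across the drug groups, and the labels do not say that a number marks a shared animal, batch or day. Intervals and counts cover counting error and the spread between samples, and counted reads carry no molecular identifiers, so copies of 1 molecule count more than once.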

Additional observations from a re-analysis of the deposited data

Results flagged for a closer look

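Of 36 sets of values (5 genes and 4 ratios in 4 groups), 3 held a library whose gap to the nearest other library, divided by the range of the set, was larger than Dixon's 95% critical value for its group size, 0.829 for 4 samples and 0.710 for 5. Chance flags about 1 in 20 such sets. Cyba stood at 82.6 CPM in DMM vehicle 64, where the other 4 DMM vehicle libraries lay between 7.01 and 27.5. In the same library the log2 FPKM ratio of Ncf1 to Cybb was 0.75, above the 0.21 to 0.33 of the other 4. The log2 FPKM ratio of Rac2 to Cybb was -0.49 in DMM AP20187 library 59, below the other 4 libraries of its group, whose highest value was -0.16. Without library 64 the AP20187 effect in DMM was 3.12 for Cyba, against 2.22 with it.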

How the results depend on the processing

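The AP20187 effects in DMM and naive mice stayed above 0 for the 5 genes under every alternative run, with 4 or 5 of 5 genes called in naive mice and 5 of 5 in DMM, except that with DMM vehicle 63 and 64 only, 2 genes were called in DMM (Cybb and Ncf1) and 3 between DMM and naive with vehicle (Cyba, Ncf1 and Ncf4). With DMM vehicle 32 to 34 only, the difference between DMM and naive with vehicle was -0.16 for Cybb, -0.38 for Cyba, -0.29 for Ncf1, -0.16 for Ncf4 and -0.32 for Rac2. No alternative called one of the 5 genes in the interaction or between DMM and naive with AP20187, and the cause of the changes was not tested. The ratio tests, which could pass only if several reached the smallest p allowed, say nothing about stability. The interaction changed sign under several settings. For Cybb it was -0.66 with DMM vehicle 63 and 64 only. With limma voom, log2(FPKM + 1) with and without a filter, log2(FPKM + 0.1), and DMM vehicle 32 to 34 only, it was 0.70, 0.51, 0.51 and 1.21 for Cyba, 0.69, 0.59, 0.60 and 1.03 for Ncf1, 0.64, 0.48, 0.48 and 0.96 for Ncf4, and 0.43, 0.36, 0.37 and 0.82 for Rac2. With 1 library left out it ran from -0.14 to 0.67 for Cybb, -0.39 to 0.78 for Cyba, -0.38 to 0.67 for Ncf1, -0.59 to 0.48 for Ncf4 and -0.68 to 0.40 for Rac2. Of the log2 ratios between DMM and naive with vehicle, Cyba to Cybb was -0.25 by medians and -0.062 with DMM vehicle 32 to 34 only (-0.12 to 0.18 with 1 library left out), and Ncf4 to Cybb was -0.12 with 32 to 34 only (-0.055 to 0.17 with 1 left out). With DMM vehicle 63 and 64 only, Ncf1 to Cybb was 0.0043 and Rac2 to Cybb 0.11. Ncf4 to Cybb under AP20187 against vehicle in DMM was -0.28 with 63 and 64 only (-0.077 to 0.14 with 1 left out). With the replicate number as a block, over the 8 naive samples that share numbers, 5 of 5 genes were called, as in the same 8 samples with no block (Cybb 2.94 with the block and 2.84 with none). Deviations of same-numbered samples correlated at 0.0235, 0.301, -0.0822 and 0.183 for numbers 1, 3, 4 and 5, so the numbers were not taken as pairs.

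Counts over all genes moved more. In DMM the AP20187 calls numbered 5410, 10676 with voom, 8450 with DMM vehicle 32 to 34 only and 1156 with 63 and 64 only, and in naive mice 2548, 4356 with DESeq2, 4542 with voom, 3958 with log2(FPKM + 1) and 1793 with no filter. With 1 library left out the DMM count ran from 3212 to 7677 (3212 without AP20187 58, 3419 without vehicle 32, 3407 without vehicle 33), and the naive count from 994 to 3452 (994 without AP20187 3, 1191 without AP20187 1, and 1368, 1292 and 1566 without vehicle 1, 2 and 5). The same range was 43 to 269 between DMM and naive with AP20187 and 12 to 57 in the interaction. The share of naive calls that were higher was 77.0%, 62.9% with no TMM factors and 40.3% with log2(FPKM + 1). With log2(FPKM + 0.1) the median of all genes in naive mice was -0.21, against -0.07. Between DMM and naive with AP20187 the calls numbered 160, 1109 with DESeq2, 2456 with voom and 73 with no filter, and between DMM and naive with vehicle 0, and 541 with 63 and 64 only, and in the interaction 26, 224 with DESeq2, 90 with 63 and 64 only and 13 with no filter. Depth did not limit the 5 genes, whose lowest count was 255.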
